A study of Sus scrofa with 23 samples.

Results

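CD40 and 9 genes near it on the pig chromosome, PCIF1, SNX21, NCOA5, MMP9, PLTP, SLC12A5, CDH22, SLC35C2 and ZMYND8, were followed across 3 groups of pigs on single-colour Agilent arrays. The 10 genes were chosen by results already known from these arrays, namely the level of CD40, PCIF1 and SNX21 in low-RFI pigs against pigs of the high line, and by their place beside CD40. Differences of these 10 genes that involve the low-RFI group are therefore given as descriptions, with no p. Of their group comparisons, that of restricted with freely fed high-RFI pigs was the one tested. Genes outside the 10 are given with p from the same fit, in the low-RFI comparisons too. All 10 genes had at least 1 measured probe, among 4201 measured genes with a name. Of their 23 probes, 18 were kept for rising well above background in 6 or more arrays of some group.

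Total RNA came from frozen Longissimus, a back muscle that runs along the spine, of 23 pigs at 115 kg body weight, with 1 array for each pig. Residual feed intake (RFI) is the feed an animal eats beyond what its growth and upkeep predict, so a low value marks an efficient animal. The groups were 7 low-RFI pigs (RFIneg) with free access to feed, 8 high-RFI pigs (RFIpl) with free access to feed, and 8 high-RFI pigs (RFIplR) whose feed was limited to the amount of the low line. Breed, sex and age of the pigs are not given in the sources used here, the pigs differ in line as well as in intake, and p-values measure only the spread between these animals.

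CD40 is a receptor of the tumour necrosis factor receptor family on B cells, dendritic cells, macrophages and several tissue cells. Its ligand, CD40LG, sits on activated T cells, and the receptor signals through TRAF adaptor proteins to the NF-kB transcription factors. Among the neighbours, PCIF1 methylates the adenosine next to the cap of messenger RNA, and SNX21 is a sorting nexin of endosomes.

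The RefSeq order of protein-coding genes in the Sscrofa11.1 assembly was used to place the genes relative to each other. NCOA5 and CDH22 lie directly on either side of CD40, with 0 coding genes between. On the NCOA5 side follow SLC12A5 with 1 coding gene between it and CD40, MMP9 with 2, PCIF1 with 4, PLTP with 5 and SNX21 with 12. On the CDH22 side SLC35C2 has 1 coding gene between and ZMYND8 has 12. The array files give no genome build, so no coordinates are printed.

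The 8 probes of CD40, PCIF1 and SNX21 are shown because the results turn on whether probes of the same gene moved together. Each probe is 60 bases long. For each gene, 1 probe whose 60 bases hold a single open reading frame is printed whole, and of the others the last 30 bases are printed, 5′ to 3′. Where the probes lie in the transcripts was not checked against a reference. Capitals mark the polyadenylation signal AATAAA.
CD40 probe 1: ggactggctaAATAAAattgtaacatgttt
CD40 probe 2: tcgtgacagtgagtgactggaaactgctta
CD40 probe 3: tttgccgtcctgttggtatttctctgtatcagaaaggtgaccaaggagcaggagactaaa
PCIF1 probe 1: tacagaaacctcccaggaatgtgtgagggt
PCIF1 probe 2: acgtaggaagatcatggctctgccagggct
PCIF1 probe 3: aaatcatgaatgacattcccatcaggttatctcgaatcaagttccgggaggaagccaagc
SNX21 probe 1: agaccctccaggctggtaattcattaaaaa
SNX21 probe 2: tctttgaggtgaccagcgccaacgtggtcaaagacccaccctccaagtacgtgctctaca
AATAAA, searched on the printed strand of each probe, occurs in 9.6% of the 43603 probes of the array and in 3 of the 23 probes of these genes, 1 each of CD40, MMP9 and SLC35C2. CD40 probes 1 and 2 share 14 bases at their ends, while probe 3 shares none with them. NCOA5 probes 1 and 2 share 57 bases and are close to a repeat of 1 measurement.

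CD40 was lower in low-RFI muscle than in both high-line groups on all 3 of its probes, by 2.31-fold to 2.59-fold. Levels are log2 processed signal minus the array's 75th percentile, so a difference of 1 is a doubling. On probe 1 the low-RFI pigs ran from 0.07 to 1.32 with a median of 0.38. The freely fed high-RFI pigs ran from 1.47 to 2.23 with a median of 1.78, and the restricted pigs from 0.98 to 2.12 with a median of 1.90. The low-RFI and freely fed high-RFI pigs did not overlap, whereas low-RFI replicate 7, the highest of its group, stood above restricted replicate 1, the lowest of its own.

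The means on CD40 probe 1 were 0.48 ± 0.40 (SD, n = 7) in low-RFI pigs, 1.79 ± 0.23 (n = 8) in high-RFI pigs and 1.73 ± 0.37 (n = 8) in restricted pigs. The low-RFI mean lay 1.31 below the high-RFI mean (SE 0.17), and 1.25 below the restricted mean (SE 0.17). Probe 2 gave -1.29 (SE 0.16) and -1.21 (SE 0.16), and probe 3, which shares no bases with the others, gave -1.37 (SE 0.15) and -1.26 (SE 0.15). In bulk tissue, fewer cells that carry CD40 and less CD40 RNA per cell cannot be told apart.

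On CD40 probe 3 the 7 low-RFI pigs lay between -3.22 and -2.31 and the 16 pigs of the high line between -2.23 and -1.07. They did not overlap, which held for 1 of the 18 probes of these genes and for 0.0576% of all 27797 probes kept. Since this contrast chose the genes, nothing is read from that count. Low-RFI replicate 7 was again the highest of its group and restricted replicate 1 again the lowest of its own.

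**Figure D1:**
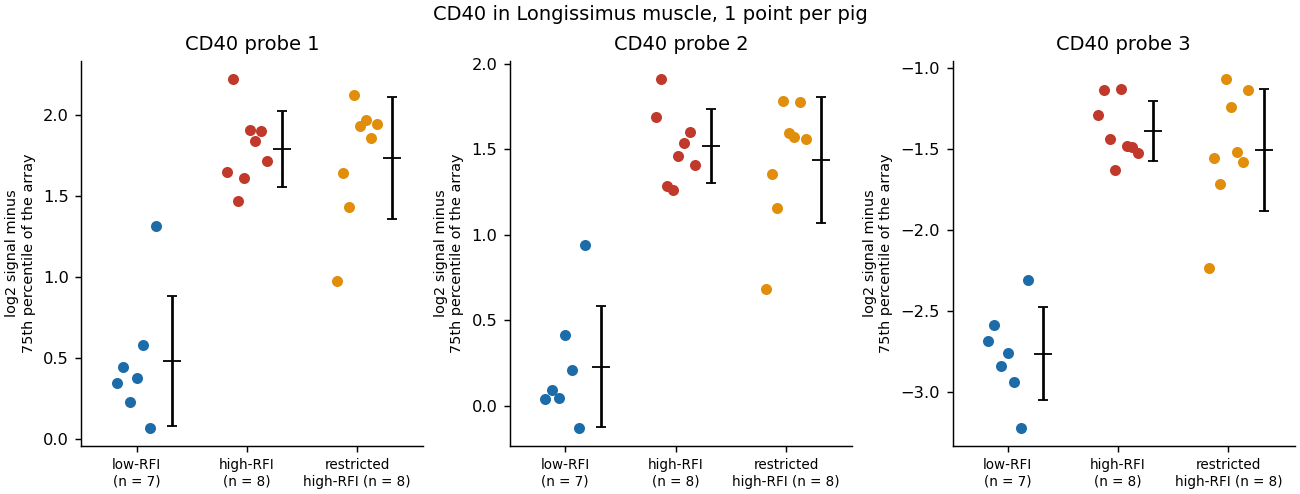
CD40 on its 3 probes in the 3 groups, with 1 point per pig and the group mean ± SD beside the points. The vertical axis is the log2 signal minus the 75th percentile of the array. The low-RFI mean is the lowest of the 3 on each probe; on probes 1 and 2 low-RFI replicate 7 lies above restricted replicate 1, and on probe 3 the 7 low-RFI pigs lie below all 16 pigs of the high line.

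CD40 did not pass the test between restricted and freely fed high-RFI pigs. Restricted minus freely fed high-RFI pigs differed by -0.06 on probe 1, with a 95% interval from -0.40 to 0.29 (limma adjusted p 0.965). Probe 2 gave -0.08 (limma adjusted p 0.933) and probe 3 gave -0.12 (limma adjusted p 0.876). By their means the groups stood in the order low-RFI, restricted and then high-RFI on each probe, and the means of the last 2 differed by less than the spread between pigs. By their medians on probes 1 and 2 the restricted pigs stood above the high-RFI pigs, at 1.90 against 1.78 and at 1.57 against 1.499.

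Arrays lay on 6 slides scanned on 2 days, each slide holding pigs of all 3 groups. CD40 probe 1 was lower in low-RFI than in high-RFI pigs on 6 of 6 slides, with slide values from -1.69 to -0.59. Against restricted pigs the slide values ran from -1.58 to -0.64. Within scan days 1 and 2, low minus high was -1.28 and -1.39, and low minus restricted was -1.01 and -1.54. Under a normexp background correction fitted on all spots, low minus high was -1.18 and low minus restricted was -0.74.

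PCIF1 went the other way, with low-RFI means above both high-line means on its 3 probes and a difference that was large on probe 1 and small on probe 3. On probe 1 the low-RFI pigs ran from 2.08 to 2.81 with a median of 2.6, the high-RFI pigs from 1.22 to 1.71 with a median of 1.56, and the restricted pigs from 1.20 to 2.37 with a median of 1.86. All low-RFI pigs stood above all freely fed high-RFI pigs, and the restricted pigs overlapped with both. The means were 2.51 ± 0.27 (SD, n = 7), 1.51 ± 0.18 (n = 8) and 1.83 ± 0.36 (n = 8). Low minus high was 0.996 (SE 0.14), a 2-fold difference, and low minus restricted was 0.68 (SE 0.14).

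PCIF1 probe 2 gave 0.68 (SE 0.16) for low minus high and 0.36 (SE 0.16) for low minus restricted. PCIF1 probe 3 gave 0.16 (SE 0.18) and 0.06 (SE 0.18), with intervals that include 0. The 3 probes of PCIF1 therefore disagree in size, and the mean of the 3 was 0.61 for low minus high and 0.36 for low minus restricted. Probe 1 carries PCIF1 only as a name in its description, while probes 2 and 3 carry it as their gene symbol.

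The restricted mean of PCIF1 probe 1 lay 0.32 above the freely fed high-RFI mean, with a 95% interval from 0.03 to 0.60. The difference did not pass the adjustment over all probes (limma adjusted p 0.446), although restricted pigs were higher on 6 of 6 slides. Probe 2 also gave 0.32 (limma adjusted p 0.525) and probe 3 gave 0.11 (limma adjusted p 0.92). Under the normexp correction fitted on all spots, the value of probe 1 was -0.20, so the direction depends on that setting.

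SNX21 was lower in low-RFI muscle on probe 1, and much less so on probe 2. On probe 1 the low-RFI pigs ran from -0.45 to 0.47 with a median of -0.21. The high-RFI pigs ran from 0.35 to 1.11 with a median of 0.73, and the restricted pigs from 0.37 to 1.28 with a median of 0.81. Only the highest low-RFI pig, replicate 7, reached into the range of either high-line group. The means were -0.11 ± 0.35 (SD, n = 7), 0.75 ± 0.22 (n = 8) and 0.77 ± 0.30 (n = 8).

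Low minus high on SNX21 probe 1 was -0.86 (SE 0.15) and low minus restricted was -0.88 (SE 0.15). SNX21 probe 2 gave -0.13 (SE 0.10) and -0.22 (SE 0.10), and its groups overlapped. The mean of both probes was -0.49 for low minus high and -0.55 for low minus restricted. Restricted and freely fed high-RFI pigs differed by 0.02 on probe 1 (limma adjusted p 0.989) and by 0.09 on probe 2 (limma adjusted p 0.853).

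**Figure D2:**
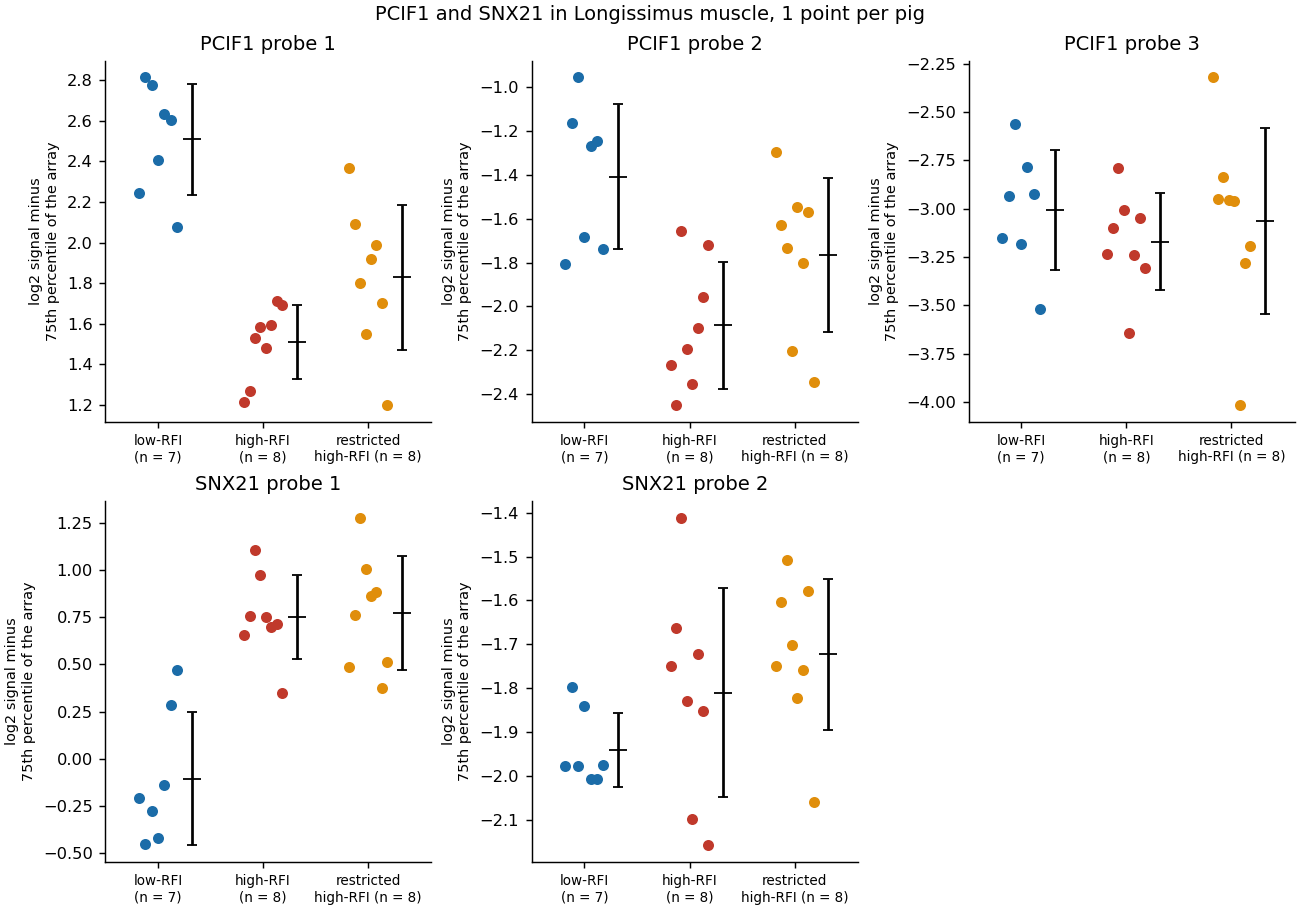
PCIF1 on 3 probes and SNX21 on 2 probes in the 3 groups, with 1 point per pig and the group mean ± SD beside the points. The vertical axis is the log2 signal minus the 75th percentile of the array. On PCIF1 probe 1 the low-RFI pigs lie above all freely fed high-RFI pigs, from 2.08 to 2.81, and on SNX21 probe 1 most low-RFI pigs lie below both high-line groups.

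The remaining chosen genes showed small differences. NCOA5, a coregulator of nuclear receptors and the direct neighbour of CD40, had means of -0.37 ± 0.12 (SD, n = 7) in low-RFI, -0.31 ± 0.39 (n = 8) in high-RFI and -0.13 ± 0.32 (n = 8) in restricted pigs on probe 1. Low minus high was -0.05 (SE 0.16), and the overlapping probe 2 gave -0.08 (SE 0.17). NCOA5 probe 3 gave 0.15 (SE 0.16) with 1 high-RFI value missing, and probe 4 was above background on 2 arrays only and was left out. The ranges of all 3 groups overlapped on each kept probe.

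MMP9, the gelatinase that cleaves denatured collagen and collagen IV, had low-RFI pigs from 1.06 to 1.65, high-RFI pigs from 0.82 to 1.85 and restricted pigs from 1.17 to 1.80 on probe 1. Low minus high was 0.05 (SE 0.13) and low minus restricted was -0.09 (SE 0.13), within the spread between pigs. Its second probe was well above background on 12 arrays and was left out.

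PLTP, which moves phospholipids between lipoproteins, had low minus high values of 0.37 (SE 0.20) on probe 1 and 0.02 (SE 0.12) on probe 2. The low-RFI pigs ran from -0.11 to 1.02 on probe 1 and the high-RFI pigs from -0.35 to 1.08, so the groups overlapped. PLTP probe 3, which shares 19 bases with probe 2, was above background on 2 arrays and was left out.

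SLC12A5 encodes the potassium and chloride cotransporter best known from neurons, and CDH22 is a cadherin, a cell adhesion protein. SLC12A5 probe 1 gave a low minus high value of 0.21 (SE 0.25), and CDH22 gave 0.12 (SE 0.24). Both probes were dim, above background on 20 and 19 of the 23 arrays. The second SLC12A5 probe reached 13 arrays and was left out.

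SLC35C2, a relative of the nucleotide sugar transporters of the Golgi, gave 0.07 (SE 0.12) for low minus high and 0.08 (SE 0.12) for low minus restricted. ZMYND8, a chromatin reader, gave -0.23 (SE 0.26) and -0.10 (SE 0.26) on a probe that was named through its RefSeq gene ID. That probe varied widely between pigs, from -1.33 to 0.21 in the low-RFI group alone. The other ZMYND8 probe, found by an older name of the gene, was above background on 0 arrays.

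None of these 7 genes separated any pair of groups on a kept probe. The share of all probes that separate a pair of groups was not counted, so nothing is read from that. In restricted against freely fed high-RFI pigs the adjusted p of these genes from limma lay above the threshold of 0.05 on each probe. The largest of these differences was 0.26 on NCOA5 probe 2 (limma adjusted p 0.649).

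Over the 18 kept probes, 5 passed limma's adjusted p of 0.05 for low minus high, 1 higher and 4 lower, against 0.122% of all probes. For low minus restricted 4 passed, all lower, against 0.162%. Counted per named gene on its brightest probe, 0.119% of genes passed for low minus high and 0.19% for low minus restricted. These contrasts chose the genes, so nothing is read from the counts. For restricted minus high 0 of 18 passed, against 0.0036% of all probes and 0% of named genes, and 1 of 18, PCIF1 probe 1, had an unadjusted limma p under 0.05. Over all probes 2713 of 27797 did, a larger share.

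**Figure D3:**
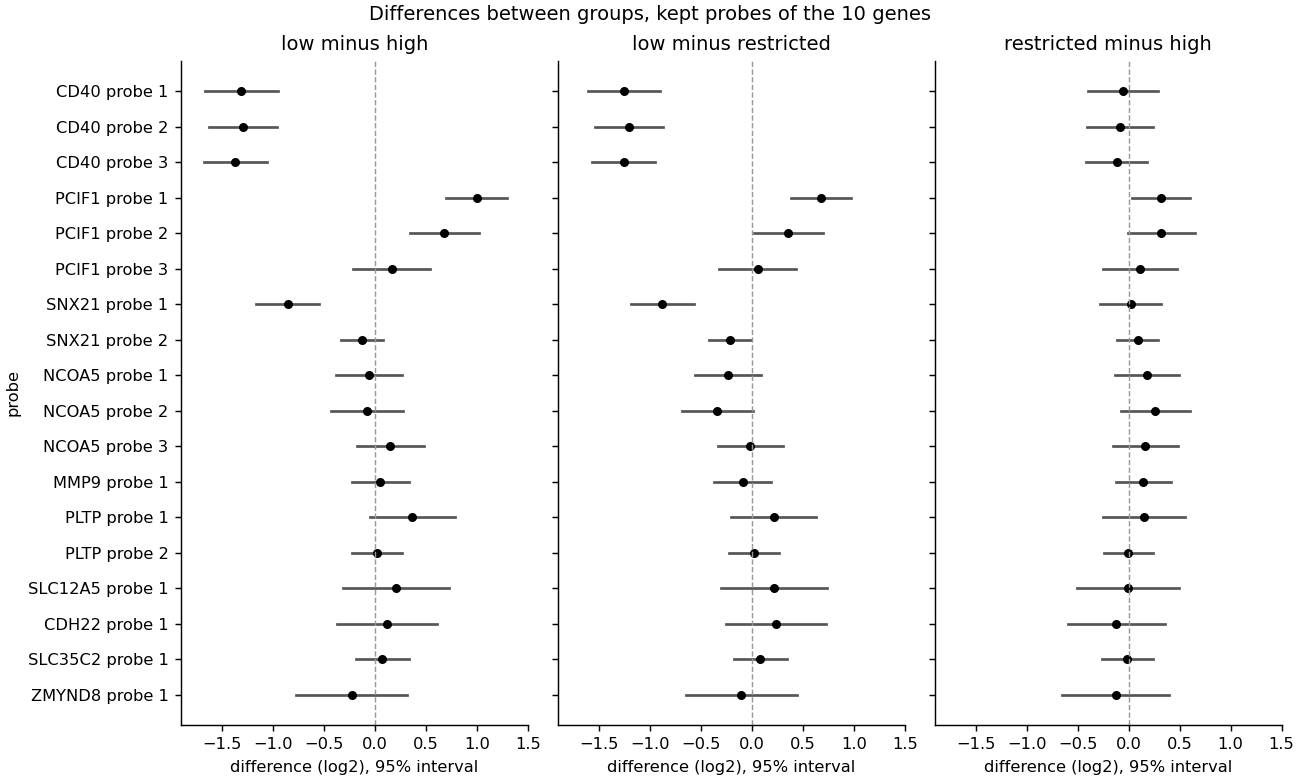
Differences in log2 level with 95% intervals for the 18 kept probes, in 3 panels for low minus high, low minus restricted and restricted minus high. The CD40 probes lie near -1.3 in the first panel and near -1.2 in the second, PCIF1 probes 1 and 2 lie above 0 and SNX21 probe 1 below 0 in both, and in the third panel 17 of the 18 intervals include 0.

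On both sides of CD40, 31 other measured and named genes, 14 on the NCOA5 side and 17 on the CDH22 side, were compared in the same fit. Among them ACOT8, NEURL2 and CTSA lie between SNX21 and PLTP, and the rest lie farther out than the chosen genes. Of the 31, 0 passed limma's adjusted p of 0.05 in any of the 3 contrasts, with 5, 4 and 4 at an unadjusted p under 0.05. Over all 4201 named genes 518, 436 and 449 were at such a p. Their median difference was 0.05 for low minus high, where the median over all probes was 0.02. SLPI, a secreted inhibitor of leukocyte proteases, had the highest value among them at 1.62 (SE 0.48, limma adjusted p 0.209), and its 7 probes ran from 0.93 to 1.62.

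ACOT8, a peroxisomal acyl-CoA thioesterase and the coding gene next to SNX21 on the side of CD40, had 3 probes, which gave -0.37, -0.36 and -0.30 for low minus high, with a limma adjusted p of 0.236 on the brightest. For low minus restricted they gave -0.37, -0.37 and -0.33. DNTTIP1 gave 0.22 (SE 0.08, limma adjusted p 0.309) for low minus high on its 1 probe. WFDC3 gave 0.22 (SE 0.09, limma adjusted p 0.349) for low minus high on its brightest probe, while its other probes gave -0.02 and -0.17. NEURL2 gave 0.49 (SE 0.17, limma adjusted p 0.333) for low minus restricted on its brightest probe and 0.22 on the other.

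**Figure D4:**
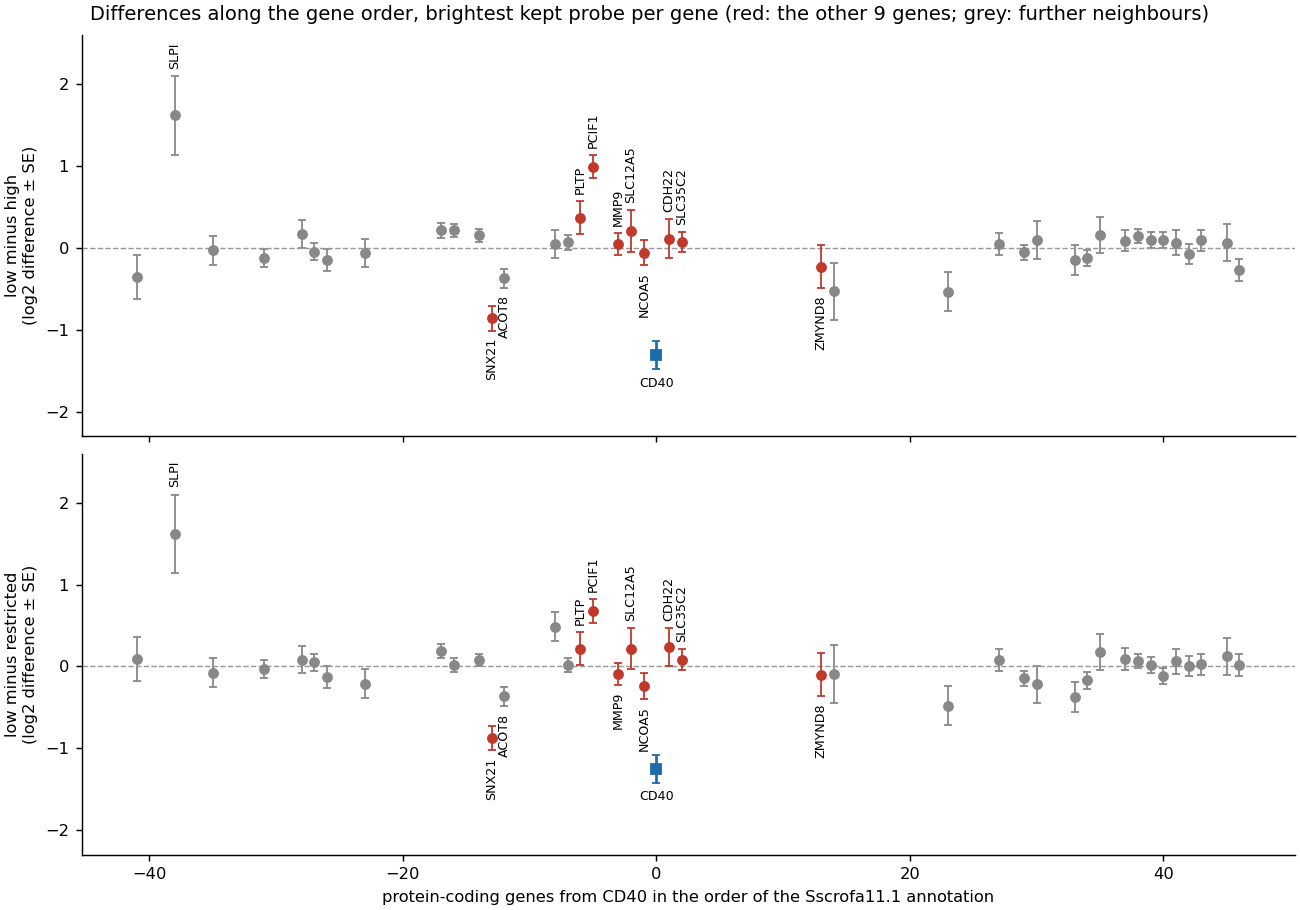
Low minus high (upper panel) and low minus restricted (lower panel) differences in log2 level ± SE on the brightest kept probe of each gene, by its place in the order of coding genes counted from CD40. CD40 at -1.31 and -1.25 is the blue square, the other 9 chosen genes are red and the 31 neighbours that were not chosen grey. NCOA5 and CDH22 beside CD40 lie near 0, while PCIF1 lies above 0 and SNX21 below.

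Whether CD40 and its neighbours varied together among pigs of the same group was asked from each pig's deviation from its group mean, on the brightest probe of each gene. PCIF1 was the neighbour with the strongest relation, with Pearson's r of -0.583 over 23 pigs (permutation p 0.00861, adjusted p 0.0775 over 9 genes) and Spearman's rho of -0.395 (permutation p 0.0754, adjusted p 0.349). Without the 2 pigs farthest from the median of CD40, low-RFI replicate 7 and restricted replicate 1, r was -0.243 (permutation p 0.32), so the relation rests on those pigs. With slide means also removed, r was -0.556. The permutation for that setting shuffled pigs across slides after slide means had been removed, so it is not a valid test and its p is not given. The main permutation also shuffled pigs of a group across slides and scan days. Its p-values therefore take no account of slide or scan day. Within scan days 1 and 2, r was -0.705 and 0.0277.

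Within the low-RFI, high-RFI and restricted groups, r of CD40 with PCIF1 was -0.629, -0.242 and -0.673. CD40 probes 2 and 3 gave -0.658 and -0.696 with PCIF1 probe 1, and CD40 probe 1 gave -0.578 and -0.614 with PCIF1 probes 2 and 3. For SNX21, r with CD40 was 0.199 (permutation p 0.423, adjusted p 0.475) and rho was 0.086 (permutation p 0.709), and without the 2 farthest pigs r was -0.398. Within scan days 1 and 2, r of SNX21 with CD40 was 0.659 and -0.589, opposite in sign, and with slide means removed it was 0.338. SNX21 and CD40, both low in low-RFI pigs, thus showed no relation within groups that passed the test over all 23 pigs.

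The other 7 genes had r between -0.401 for CDH22 (permutation p 0.0443, adjusted p 0.199) and 0.251 for SLC35C2 (permutation p 0.288, adjusted p 0.46). For CDH22 rho was -0.337 (permutation p 0.126), and with slide means removed r was -0.0243. For NCOA5 r was -0.117 (permutation p 0.564), yet -0.631 with slide means removed. The permutation p of that setting is again not given. In the main setting 0 of 9 relations passed an adjusted p of 0.05, with 2 of the 9, PCIF1 and CDH22, at an unadjusted permutation p under 0.05.

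**Figure D5:**
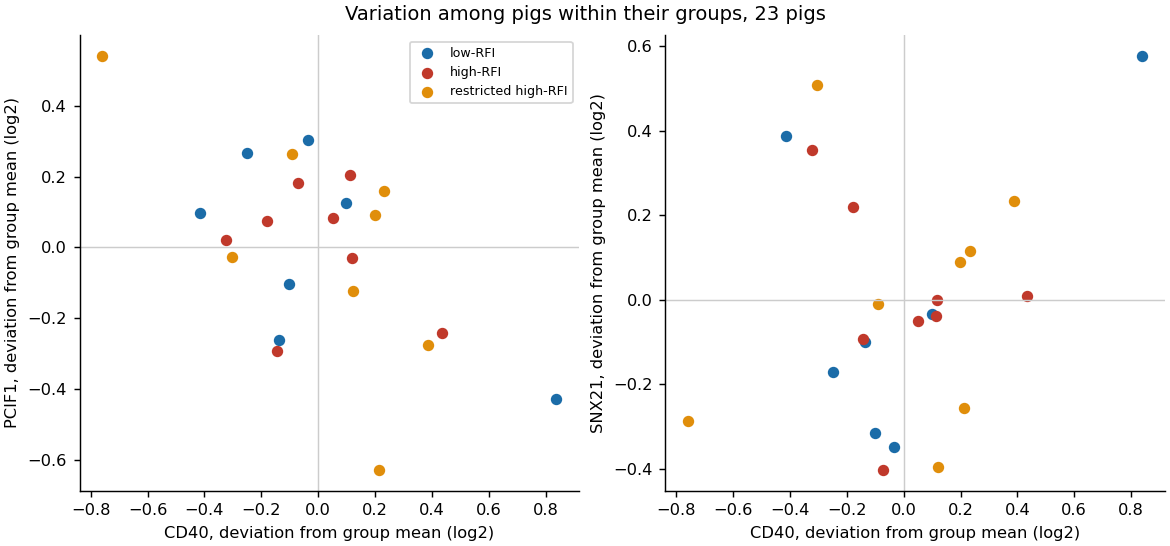
Deviation of PCIF1 (left) and SNX21 (right) from the group mean against that of CD40 for 23 pigs, in log2 units, coloured by group. Low-RFI replicate 7 at a CD40 deviation of 0.838 and restricted replicate 1 at -0.759 are the farthest points along the horizontal axis, and r is -0.583 for PCIF1 and 0.199 for SNX21.

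Among 4200 other named genes, the 5 whose deviations over the 23 pigs were most like those of CD40 were TCEA1 (r 0.654), SLC5A4 (0.652), SPATA5L1 (0.646), LGALS8 (0.638) and PPIL2 (0.633). They were picked from all genes for this value, so they are a description. CD40 probes 2 and 3 reached 0.922 and 0.822 with probe 1 by the same measure. Their low minus high values lay between -0.21 for LGALS8 and 0.29 for SLC5A4. PCIF1 stood 36th from the opposite end of the same order.

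The signalling partners of CD40 gave no call. Of 32 genes listed for the CD40 pathway, 20 were measured, and 0 passed limma's adjusted p of 0.05 in any contrast, with 1, 3 and 2 at an unadjusted p under 0.05. Over all named genes 0.119%, 0.19% and 0% passed, and 518, 436 and 449 of 4201 had such an unadjusted p. The 0 of 20 is thus near the share over all genes. The median difference of the 20 was 0.02 for low minus high and -0.01 for low minus restricted. CD40LG, the ligand, was well above background on 0 arrays.

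TRAF3, an adaptor that binds the tail of CD40, had 0.47 for low minus high (SE 0.16, limma adjusted p 0.264), and MAPK8, a stress-activated kinase, had -0.26 (SE 0.13, limma adjusted p 0.467). The adaptors TRAF6 and TRAF5 had 0.92 (SE 0.30, limma adjusted p 0.275) and 0.31 (SE 0.14, limma adjusted p 0.466) for low minus restricted. For restricted minus high they had -0.62 (SE 0.29, limma adjusted p 0.491) and -0.33 (SE 0.14, limma adjusted p 0.412). NFKB1 and RELA, subunits of NF-kB, had low minus high values of 0.09 (SE 0.09) and -0.01 (SE 0.10). Of 12 genes listed as partners of MMP9, 9 were measured and 0 passed in any contrast, where at most 0.19% of named genes passed. TIMP3, an inhibitor of matrix metalloproteinases, had -0.33 for low minus high (SE 0.14, limma adjusted p 0.394) and -0.25 for low minus restricted (SE 0.14, limma adjusted p 0.569). Other MMP9 partners taken by the same rule were MMP14 for low minus high at 0.15 (SE 0.15), and MMP2 at 0.19 (SE 0.11) and TIMP2 at 0.25 (SE 0.19) for restricted minus high.

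Markers of other cell types were set beside the CD40 result. At most 0.19% of named genes passed in any contrast, so a list with none called is near that share. For B cells, 1 of 8 listed markers was measured, PAX5, with a low minus high value of 0.01 (SE 0.13), while CD79A was above background on 2 arrays. For macrophages, 4 of 8 were measured, all 4 lower in low-RFI than in high-RFI pigs with none called and a median of -0.28. For low minus restricted 3 of them were negative and 1 positive, with a median of -0.134. The summed macrophage level on the linear scale ran from 4.09 to 7.73 in low-RFI, from 4.76 to 9.61 in high-RFI and from 4.25 to 14.1 in restricted pigs. For dendritic cells and antigen presentation, 4 of 8 were measured, 2 higher and 2 lower.

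For neutrophils, 3 of 6 markers were measured, and all 3 had a negative low minus high value with none called, at a median of -0.68. Among them S100A8, a calcium-binding protein abundant in neutrophils, had -1.19 (SE 0.52, unadjusted limma p 0.032). Its probe was dim, above background on 14 of the 23 arrays. S100A12 and S100A9 had -0.68 (SE 0.38) and -0.06 (SE 0.35). For low minus restricted the median of the 3 was -0.125, with 2 negative and 1 positive. The summed neutrophil level ran from 0.183 to 0.431 in low-RFI and from 0.174 to 0.905 in high-RFI pigs, so the groups overlapped. For endothelial cells, 5 of 6 were measured, 4 with a negative and 1 with a positive low minus high value and none called. VWF, the clotting factor of the vessel wall, had -0.38 for low minus high (SE 0.14, unadjusted limma p 0.0125) and -0.35 for low minus restricted (SE 0.14, unadjusted limma p 0.0186). In the latter contrast most endothelial markers went the other way, with 3 positive, 2 negative and a median of 0.157. Of 4 measured T cell markers 3 were positive for low minus high, and of 4 measured fibroblast markers 2 were, with none called.

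Of the adipocyte markers, 5 of 5 measured genes had a negative low minus high value with none called, at a median of -0.72. For low minus restricted 4 of them were negative and 1 positive, with a median of -0.573. The summed adipocyte level ran from 16.5 to 48.0 in low-RFI, from 18.5 to 124 in high-RFI and from 18.1 to 71.9 in restricted pigs. Of 2 measured nerve markers, UCHL1 was lower in low-RFI than in restricted pigs, with a difference of -1.07 (SE 0.21, limma adjusted p 0.039). Muscle fibre markers were measured for 8 of 10 genes and 0 were called. For low minus high 7 of them were positive and 1 negative, with a median of 0.137. For low minus restricted 6 were positive and 2 negative, with a median of 0.0487. The part of these cell types in the CD40, PCIF1 and SNX21 differences was not tested.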

How the data were processed

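Cy3-labelled RNA of each pig was hybridised to 1 array. The deposited spot intensity values were background-subtracted by Feature Extraction 10.7.3.1, per the file headers. The deposited table of log2 values served as an alternative; set against the scanner files, its columns differed from the log2 processed signal by 1 constant per array. The submitters' processing notes name R 2.10.0.

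From the log2 processed signal of 43803 spots, other than controls, the array's 75th percentile was subtracted, and spots of a probe were averaged; 27797 of 43603 probes were kept. The 1417 control spots were left out. Between 41.7% and 79.1% of probes were well above background on an array, and precision is limited by how many arrays there were. A single limma 3.58.1 fit (R 4.3.3) held all 3 groups, with Benjamini-Hochberg adjustment over all kept probes. Correlations used 100000 permutations within groups and across slides and scan days, two-sided.

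The members, lists and tests were chosen with earlier results of these data known. All members are named, with all probes. In the CD40 and MMP9 lists the rule took genes past the threshold or else the smallest p; of neighbours it took up to 4 with the smallest p in each low-RFI contrast. NFKB1, RELA and CD40LG were named for their role. A few listed genes are not reported here. Names were matched through the files, accessions and gene IDs, with 31602 probes unnamed and 38 with several names. ZMYND8 was matched by gene ID.

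Alternatives were median centring, quantile normalization, normexp, the deposited values, other filters, slide, scan day or replicate as a block, fits of 2 groups, trend and robust variance, omitting single pigs, and averaging a gene's probes. Tested on simulated data for low minus high, the fit called 77 of 100 probes shifted by 1 (log2) among 27324.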

Additional observations from a re-analysis of the deposited data

Results flagged for a closer look

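In 45 groups of pigs examined on the probes of these genes, 4 had 1 pig far from the others, where chance gives about 1 in 20. CD40 probe 1 in low-RFI replicate 7 stood at 1.32, with the next pig at 0.58. CDH22 probe 1 in the same pig stood at -4.28, with the next pig at -3.54. On the same slide, high-RFI replicate 5 stood at -4.91 and restricted replicates 6 and 8 at -4.33 and -3.95. The part of the slide in that value was not tested. PLTP probe 1 in low-RFI replicate 5 stood at -0.11, with the next pig at 0.65. NCOA5 probe 1 in restricted replicate 7 stood at -0.87, with the next pig at -0.31.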

How the results depend on the processing

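CD40 kept its direction in both low-RFI contrasts under each alternative run. Leaving out each pig in turn gave -1.45 to -1.24 for low minus high and -1.39 to -1.19 for low minus restricted. With the normexp correction fitted on all spots, low minus restricted was -0.74, and 0 of all 27797 probes passed in any contrast; the cause was not tested. With a normexp correction on negative control spots, chosen after seeing the data, the values were -1.22 and -1.17, and a fit without slide 3, chosen likewise, gave -1.43 and -1.32. Calls of CD40, PCIF1 and SNX21 in the low-RFI contrasts, which chose the genes, are not read as support. They were all lost with normexp on all spots and within each scan day alone. Those of PCIF1 and SNX21 for low minus high were also lost on the mean of their probes, and SNX21's with median centring (low minus high) and a fit of the 2 groups alone (low minus restricted). For restricted minus high, 0 kept probes of these genes passed under each setting, leaving out each pig included. Correlations with CD40 that passed numbered 0 in the main setting and 0 to 1 without each pig in turn, the 1 being PCIF1 without high-RFI replicate 1 (r -0.631, permutation adjusted p 0.0388). They numbered 2 without the farthest pigs (MMP9 at -0.589 and SLC35C2 at 0.671) and 1 each for CD40 probes 2 and 3 (PCIF1). With slide means removed no count is given, since that permutation shuffled pigs across slides whose means had been removed. With the replicate number as a block, CD40 gave -1.30 and -1.24 and 0 kept probes of these genes passed for restricted minus high. Correlations over the array cannot decide whether the replicate numbers pair the pigs. Deviations of same-numbered pigs had a median correlation of 0.0482 over 22 pairs, against -0.0134 over 154 other pairs across groups. Of the 22 pairs 7 were over 0.1, and 4 of 23 pigs correlated best with their own number.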
